A study of Mus musculus with 8 samples.

Results

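Tag clusters of Pwwp2a/b double knockout (DKO) clone C7 were compared with those of wild-type E14 mouse embryonic stem cells (mESCs). A tag cluster is a group of neighbouring capped 5′ ends on 1 strand. The comparison uses 6 of the 8 CAGE-seq samples of the series, 3 from E14 and 3 from C7, which the authors merged into 1 track per line. Both lines are E14 mESCs, grown with LIF on gelatine, and they differ by genotype: E14 is wild-type, and C7 is 1 clone of E14 cells that lost both Pwwp2a and Pwwp2b. The remaining 2 samples come from a second double knockout clone, A1, and serve only as background. CAGE-seq was run on nuclear RNA to map capped 5′ ends across promoters and gene bodies. Each track held positions and widths of clusters and no expression values, so a cluster was either present or absent in a line. Because each line is 1 track and the mutant is 1 clone, no spread between replicates was available, no test was run, and a difference of genotype and a difference between clones cannot be told apart. The study's mapping summary gives more mapped reads for the merged E14 libraries than for those of C7, and the part of depth in the results was not tested.

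PWWP2A and PWWP2B are chromatin proteins that recognise histone H3 trimethylated at lysine 36 (H3K36me3), a mark laid down over transcribed gene bodies, and bind an HDAC1/2 and MTA subcomplex that removes acetyl groups from histones. Gene bodies carrying this mark are usually kept deacetylated, which limits starts of transcription inside genes. Promoter starts in mammals mostly fall on a purine that follows a pyrimidine, whereas CAGE ends inside exons often follow G. The position with the most tags in a cluster is called the dominant transcription start site (TSS), and the interquantile region is the stretch between the 0.1 and 0.9 quantiles of its tags.

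E14 held 32857 clusters and C7 held 32870. Clusters on the same strand that shared 1 bp or more were matched, and 32595 clusters were matched one to one, of which 99.4% had the same start and end in both lines. Clusters without a match made up 0.776% of the C7 clusters (255) and 0.749% of the E14 clusters (246). A promoter cluster, here and below, is one whose dominant TSS lay within 500 bp of any annotated transcript start on its strand. Some promoter clusters therefore lie inside genes, such as one at 32.0 kb from the gene start of Zfp106. The lines carried the same marker genes: 8 of 8 embryonic stem cell markers had a promoter cluster in both, 0 of 5 mesendoderm markers had one in either, and fibroblast markers had one at 3 of 5 genes in both, with Postn and Lum at 0. Both lines also had one at 4 of 6 primed epiblast, 4 of 6 primitive endoderm, 3 of 5 neural and 1 of 5 trophoblast markers. Presence of a promoter cluster thus did not by itself separate cell types. Pwwp2a had 1 promoter and 1 intragenic cluster in E14, in C7 and in A1, and Pwwp2b had none in any line, so presence of clusters did not check the knockout.

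Of the 4 annotation classes (promoter, exon, intron and intergenic), exons had the largest imbalance between the lines. C7 had 82 exonic clusters without a match in E14, 1.9% of its 4321 exonic clusters (95% Wilson interval 1.53 to 2.35%), against 24 in E14, 0.563% of 4260 (0.379 to 0.837%). These intervals, like all those given here, cover counting error only. Of the 82 C7-only clusters, 58 lay in coding sequence, 20 in 3′ UTRs, 2 in 5′ UTRs and 2 in noncoding exons. A1, compared with E14 in the same way, had 75 exonic clusters of its own against 29 in E14 only, and 67 of the 75 were of 1 bp, and both comparisons share the E14 track. The 75 clusters of A1 and the 82 of C7 were only in part at the same places. The 77 host genes of the C7-only clusters had varied roles, and those named here were chosen after their values were seen. They were the cohesin subunit Smc3, the histone acetyltransferase Kat6b, the FACT subunit Supt16, the H3K36me3 reader Psip1, the DNA dioxygenase Tet1, the splicing factors Srrm2 and Srsf7, the RNA-binding protein Hnrnpa2b1, and Eif3a, a subunit of the translation initiation factor eIF3, and also Apoe, a lipid carrier, Spp1, the secreted protein osteopontin, and the tetraspanin Cd9.

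The sequences around several of the C7-only coding starts are shown because the bases just before the start set these clusters apart from promoter starts. Each line gives 30 bases of mm10 in the direction of transcription from GENCODE M21 transcripts, with capitals at the 2 bases before the dominant TSS and at the dominant TSS itself.
Smc3, first C7-only cluster (chr19:53623474-53623503, plus strand): tattaaaagagaGGCagaagctgcttgaaa
Smc3, second C7-only cluster (chr19:53624983-53625012, plus strand): tatgcaaagcagGGTcgaggaagccagttt
Kat6b (chr14:21661434-21661463, plus strand): catcattagaagGGAaaagttgatattggg
Supt16 (chr14:52178088-52178117, minus strand): ctaacaaagaagGGAaaaagccagaagaga
Psip1 (chr4:83463598-83463627, minus strand): acgcaagcaggaGGAacaaatggaaactga
Tet1 (chr10:62879357-62879386, minus strand): ggccactggaagGGAcacattgtgaagaac
Hnrnpa2b1 (chr6:51467270-51467299, minus strand): gcagagagaaaaGGAacagttccgaaagct
Eif3a (chr19:60768782-60768811, minus strand): aagaagtagaaaGGAaaaagcggcaaagag
Srrm2 (chr17:23816784-23816813, plus strand): atatcaccaagaGGAagaagccattctagc
Zfp106 (chr2:120534493-120534522, minus strand): caaaaaataaggAGAcaaagtcctttcctt
All but the Zfp106 cluster had GG immediately before the dominant TSS, and Zfp106 had AG there. For comparison, coding starts that were present in E14 and had no match in C7 read as follows.
Top1 (chr2:160682670-160682699, plus strand): aagaaacacaaaGAGaaagagaaaaccaaa
Macf1 (chr4:123383374-123383403, minus strand): tggtctgcatgaGGAgttggagttcattag
Rasa4 (chr5:136102345-136102374, plus strand): gcacgtgcccagCCAtcatccgcgccacat
Cdh1 (chr8:106661909-106661938, plus strand): caactggctggaGATtaacccagagactgg
Klf5 (chr14:99301725-99301754, plus strand): gccaccacaggaGGTgaacaatatcttcat
These E14-only starts were mixed, with GG before the start in Macf1 and Klf5 and other bases in Top1, Rasa4 and Cdh1. They are examples, and GG was more frequent over all E14-only coding clusters with sequence, at 12 of 19.

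Over all exonic clusters with sequence at these positions, GG stood immediately before the dominant TSS in 71 of 79 C7-only clusters (89.9%, 95% Wilson interval 81.3 to 94.8%). The same held for 14 of 23 E14-only exonic clusters (60.9%, 40.8 to 77.8%) and for 2646 of 4164 exonic clusters of E14 that were matched in C7 (63.5%, 62.1 to 65.0%). The C7-only interval thus lay above that of the matched exonic clusters. The exonic clusters of A1 without a match in E14 shared this feature, with GG in 62 of 72 (86.1%, 76.3 to 92.3%). In promoters, GG stood there in 10.9% of 17558 E14 clusters, and over all positions of the exons that hosted the C7-only clusters, a position was preceded by GG in 6.04% of cases on average. Within coding sequence, the base just before the start was G in 58 of 58 C7-only clusters, and GG stood there in 53 of 55. A pyrimidine followed by a purine, the usual promoter step, was found in 3.66% of the C7-only exonic clusters, against 10.5% of all E14 exonic clusters and 74.4% of E14 promoter clusters.

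**Figure D1:**
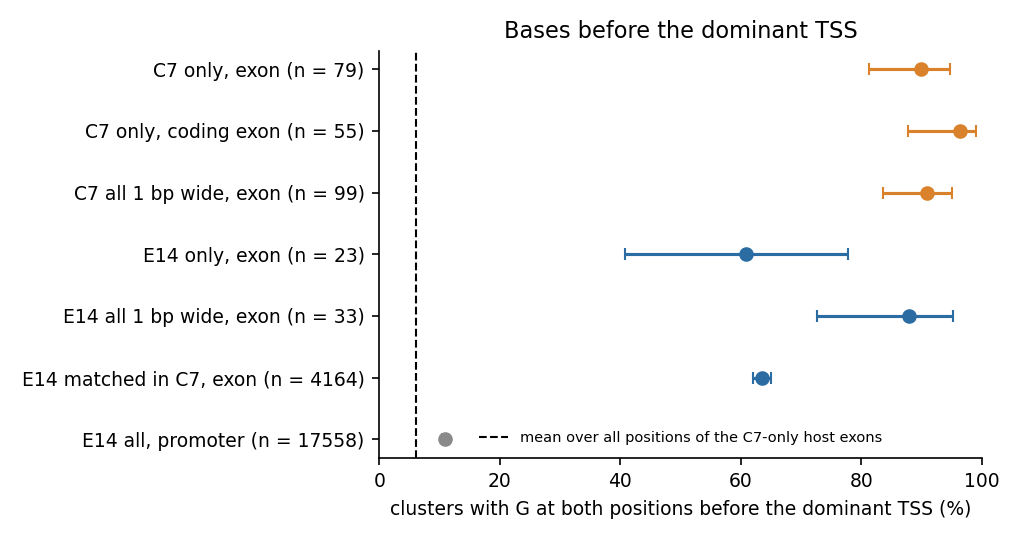
Share of clusters (x axis, percent) with G at both positions before the dominant TSS, for 7 sets of clusters (y axis); points are shares, bars are 95% Wilson intervals for counting error, and the dashed line is the mean over all positions of the exons that hosted C7-only clusters, 6.04%. The C7-only exonic clusters (89.9%) sit beside the 1 bp wide clusters of both lines and above the matched exonic clusters of E14 (63.5%). The 1 bp wide set of C7 holds most of the C7-only clusters.

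The C7-only exonic clusters were also narrow. A single base made up the whole cluster in 74 of the 82 C7-only exonic clusters, against 5 of the 24 E14-only ones. Counting only clusters of 2 bp or more turned the direction of the exonic difference, to 8 C7-only against 19 E14-only clusters. Width and the bases before the start moved together: among all exonic clusters of 1 bp, matched or not, GG preceded the start in 90 of 99 in C7 (90.9%) and in 29 of 33 in E14 (87.9%). C7 had 103 exonic clusters of 1 bp, E14 had 34 and A1 had 97. Of the 103 in C7, 74 were C7-only, so the share of 90.9% is not independent of that of the C7-only clusters. The exonic excess of C7 was thus an excess of clusters of 1 bp, and wider exonic clusters without a match were fewer in C7.

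**Figure D2:**
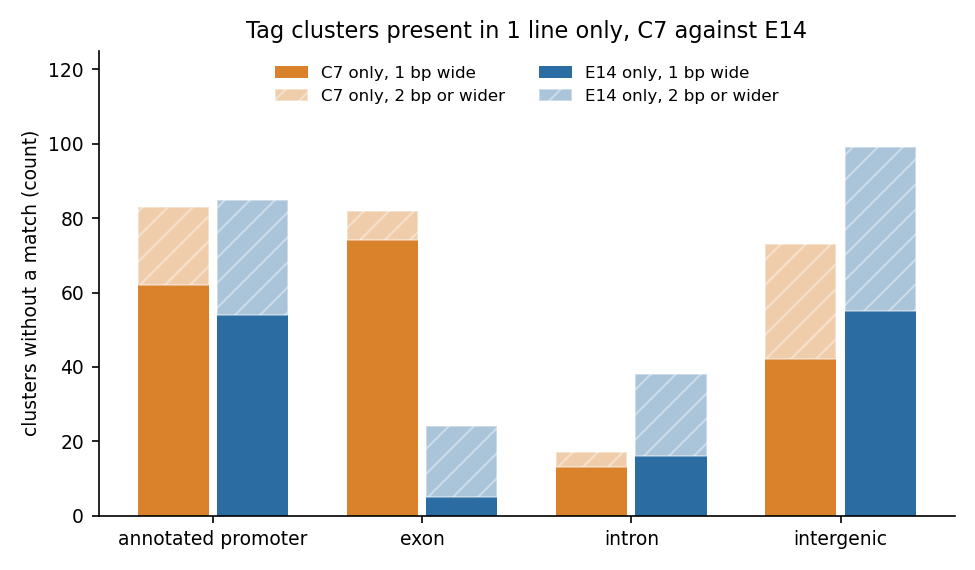
Number of clusters without a match in the other line (y axis, count) by annotation class (x axis), with C7-only clusters in orange and E14-only clusters in blue; solid bars are clusters of 1 bp and hatched bars are clusters of 2 bp or more. In exons the C7 bar of 82 is nearly all solid (74), while the E14 bar of 24 is mostly hatched (19).

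The exonic excess was spread over the genome. More C7-only than E14-only exonic clusters were found on 18 of the 20 chromosomes 1 to 19 and X, fewer on 1, and no chromosome held more than 7. Of the 77 host genes, 75 had a promoter cluster in E14 and 65 already had at least 1 intragenic cluster in E14, whereas 20.9% of the 11065 protein-coding genes with an E14 promoter cluster had an intragenic one. Within 100 bp of a C7-only exonic cluster E14 had another cluster in 23 of 82 cases, and the median distance to the nearest E14 cluster on the same strand was 546 bp. Most C7-only exonic clusters therefore lay in genes where E14 had intragenic clusters too.

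The widest exonic clusters without a match were still short. In C7 they were those of Rfc1, the large subunit of the clamp loader in DNA replication (12 bp, coding exon 4 of 25), Irf2bpl, a transcriptional regulator (11 bp, 3′ UTR), Tcof1, a nucleolar protein needed for ribosome production (7 bp, coding exon 18 of 26), Snapc3, a subunit of the complex that activates small nuclear RNA genes (5 bp, noncoding exon), and 4 clusters tied at 2 bp, namely a second one of Irf2bpl (5′ UTR) and those of Irs1, an adaptor of insulin signalling (5′ UTR), Pelp1, a nuclear receptor coregulator, and Ubr4, a ubiquitin ligase (both coding). A1 had a matching cluster at all of these except the second of Irf2bpl. The narrower C7-only exonic clusters were divided in this respect. A1 had no match at those of Kat6b, Psip1, Hnrnpa2b1, Nsd1, Hspd1 and Srrm2. It had a match at those of Supt16, Tet1, Eif3a and Zfp106, and in Smc3 at the second cluster and not at the first. In E14 the widest were those of Ipo7, a nuclear import receptor (21 bp), Cdh1, the adhesion protein E-cadherin (18 bp), Ogt, the enzyme that adds O-linked N-acetylglucosamine (16 bp), Rasa4, a Ras GTPase-activating protein (10 bp), and Macf1, a linker of microtubules and actin (9 bp). A1 had a matching cluster at all 5 of them, so C7 was the line without them.

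At the gene level, few genes changed by more than 1 intragenic cluster. Irf2bpl went from 0 intragenic clusters in E14 to 2 in C7 (1 in A1), Jade1, a scaffold of the HBO1 histone acetyltransferase complex, from 6 to 8 (6 in A1), and Smc3 from 8 to 10 (9 in A1). Zfp106, a zinc finger protein that binds RNA, went from 7 to 9 and Myo10, a myosin of filopodia, from 8 to 10, with 9 and 10 in A1. On chromosome Y, Gm47283 went from 81 to 83 without any unmatched cluster, as 2 clusters that were single in E14 were each split into 2 in C7. In the other direction, Lima1, an actin cross-linking protein, went from 7 to 5 and had 7 in A1. The gains in Jade1, Smc3 and Zfp106 were 2 exonic clusters of 1 bp each, and in Lima1 1 exonic cluster of 1 bp and 1 intronic cluster of 19 bp were missing in C7.

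**Figure D3:**
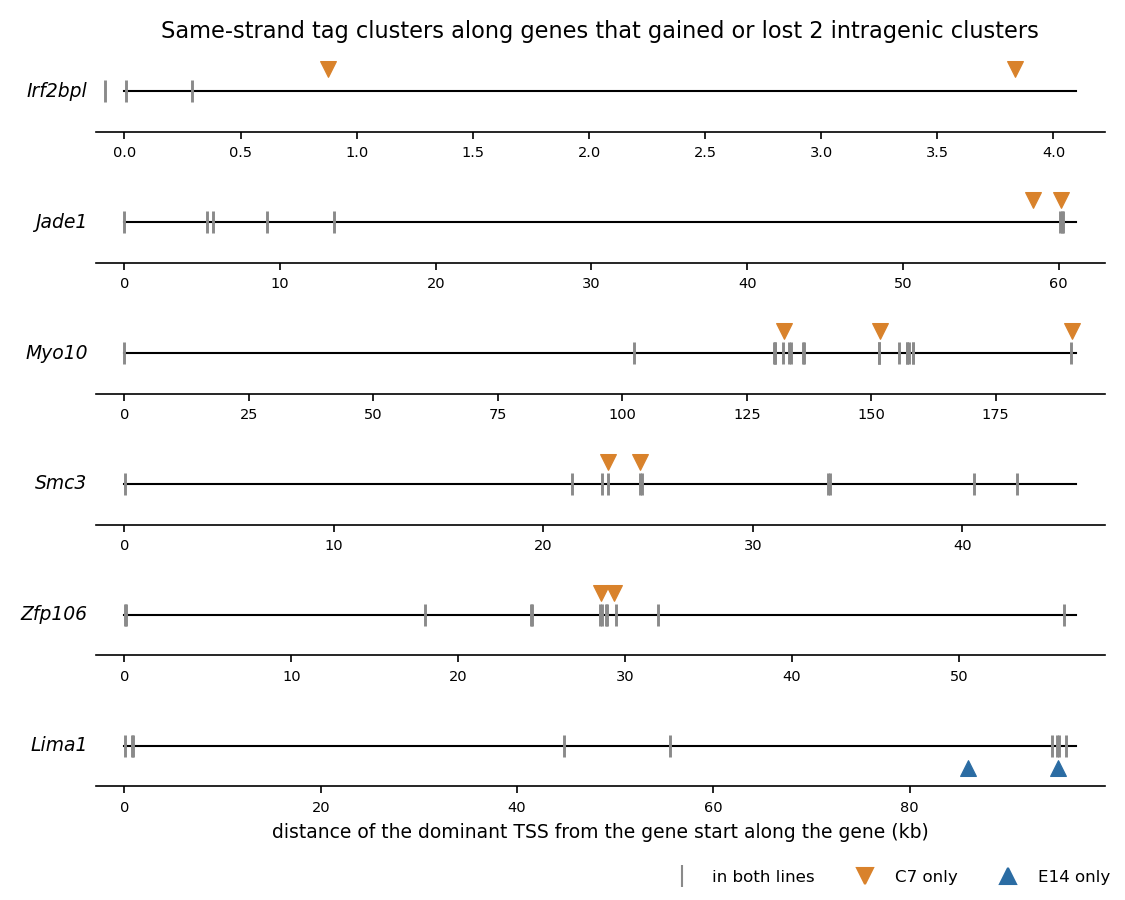
Same-strand clusters along 6 genes (x axis, distance of the dominant TSS from the gene start in kb, 1 scale per gene), with grey ticks for clusters in both lines, orange triangles for C7-only and blue triangles for E14-only clusters. In Smc3 and Zfp106 the 2 C7-only clusters sit next to clusters that both lines have, whereas in Irf2bpl they sit apart, at 0.877 and 3.84 kb.

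Genes of lists that fit the question, chosen with earlier results of these data known, were then read for clusters without a match. Among the 11065 protein-coding genes with an E14 promoter cluster, 0.669% had a C7-only exonic cluster and 0.208% an E14-only one. Among the 211 genes of 11 lists with an E14 promoter cluster, which covered chromatin, RNA processing, translation, chaperones, pluripotency, imprinting and DNA replication, 13 had a C7-only and 1 an E14-only exonic cluster. Counting clusters of any class, 19 of the 211 had a C7-only cluster and 4 an E14-only one, beside 1.25% and 1.14% of the coding genes. The list genes also carried more intragenic clusters to begin with: 121 of the 211 had one in E14, with a mean of 5.53, against a mean of 2.75 in the 2309 coding genes that had any. Within those 121 genes 12 had a C7-only exonic cluster (9.92%, 5.76 to 16.5%), against 63 of the 2309 (2.73%, 2.14 to 3.48%). Most of the 121 genes are also among the 2309, and the number of intragenic clusters per gene was not held equal. Given this and the choice of the lists, these shares do not show an enrichment of the lists.

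The list members with a C7-only cluster had these roles and values. In the PWWP2-HDAC and NuRD list, 1 of 15 genes had one, Gatad2a, a structural subunit of NuRD, which went from 1 intragenic cluster to 2 by a 1 bp cluster in its 3′ UTR. In the list of H3K36 methylation and cryptic initiation, 3 of 24 had one: Nsd1, an H3K36 methyltransferase (7 to 8 intragenic clusters), Supt16 (7 to 8) and Psip1 (5 to 6). Among histone acetyltransferases and readers, the members were Kat6b (19 to 20 intragenic clusters), Brd3, a bromodomain reader of acetylated histones (2 to 3), and Crebbp. Crebbp, the acetyltransferase CBP, went from 2 to 3 promoter-class clusters. Its C7-only cluster (dominant TSS chr16:4128626, minus strand) lay downstream of its widest promoter cluster (dominant TSS chr16:4213989). Ep400, the ATPase of a complex that exchanges H2A.Z, went from 2 to 3 intragenic clusters. In these 4 lists no gene had an E14-only cluster.

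Among RNA processing genes, Srrm2, a scaffold protein of nuclear speckles, had 4 C7-only clusters and 1 E14-only cluster: its promoter-class clusters went from 15 to 17 and its intragenic ones from 32 to 33. Srsf7, a splicing factor of the SR family, had 1 exonic cluster in C7 and none in E14 or A1. Hnrnpa2b1 went from 5 to 6 intragenic clusters, Hnrnpul1 from 3 to 4 promoter clusters, and Sf3b2, a subunit of the U2 snRNP, from 1 to 2 promoter clusters. Eif3a went from 20 to 21 intragenic clusters and Eif4g2, a translation initiation factor, from 8 to 9 promoter clusters. Of the chaperones, Hspd1, the mitochondrial HSP60, went from 12 to 13 intragenic clusters, and Hsp90ab1 from 13 to 14 promoter clusters. In each of these genes but Srrm2 the change was 1 cluster. The C7-only promoter-class clusters of Sf3b2 (dominant TSS chr19:5294330) and Hsp90ab1 (chr17:45569792) lay downstream of the widest promoter cluster of each gene.

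The pluripotency list held 2 genes with a C7-only cluster and 1 with an E14-only cluster of 23. Sox2 went from 3 to 4 promoter clusters and Tet1 from 63 to 64 intragenic clusters, while Klf5 lost 1 of 13 through the 3 bp coding cluster shown above. In the imprinted list Usp29 went from 2 to 1 promoter clusters, and in the DNA replication list Orc4, a subunit of the origin recognition complex, went from 5 to 4 intragenic clusters. All 23 pluripotency genes had a promoter cluster in both lines.

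Promoters, introns and intergenic regions differed less or in the other direction. Of promoter-class clusters, 83 of C7 (0.418% of 19877) and 85 of E14 (0.428% of 19872) had no match. The widest promoter-class clusters of C7 only were those of Tlnrd1 (20 bp), Bcl7a, a SWI/SNF-associated protein (18 bp), Otud4, a deubiquitinase (17 bp), Srrm2 (15 bp) and Dnah1, an axonemal dynein heavy chain (14 bp). Those of E14 only were at Naa15, a subunit of the N-terminal acetyltransferase NatA (26 bp), Axl, a receptor tyrosine kinase (25 bp), Atf2, a bZIP transcription factor (22 bp), Card10, a scaffold in NF-κB signalling (21 bp), and Sh3tc2, an SH3 domain protein of endosomes (18 bp). A1 had a matching cluster at all 10 of these. In introns C7 had 17 clusters without a match (0.563% of 3021, 0.352 to 0.899%) and E14 had 38 (1.25% of 3046, 0.910 to 1.71%). Between genes the counts were 73 (1.29% of 5651, 1.03 to 1.62%) and 99 (1.74% of 5679, 1.43 to 2.12%). Introns and intergenic regions thus had more clusters in E14 only, the direction opposite to exons, although for intergenic clusters the intervals of the lines overlapped. The widest intronic clusters of C7 only were in Asxl1, a Polycomb-associated chromatin protein (20 bp), Gm20388 and the GTPase gene Mras (6 bp each), and those of E14 only were in Lima1 and in Ncoa1, a coactivator of nuclear receptors (19 bp each).

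A promoter cluster was present in C7 and not in E14 at 26 genes, 0.207% of the 12553 genes with a C7 promoter cluster, and in E14 and not in C7 at 33 genes, 0.263% of 12560. Of the former 12 were protein-coding and of the latter 30. Among these 12 coding genes the widest cluster was that of Dnah1 (14 bp). Those of Itga11, a collagen-binding integrin (5 bp), Calhm6, a calcium homeostasis modulator family member (4 bp), Cyp1b1, a cytochrome P450 (4 bp), Tnc, the matrix protein tenascin C (4 bp), Col8a1, a collagen chain (3 bp), Igfbp5, a binding protein of insulin-like growth factors (3 bp), and Col3a1, a fibrillar collagen chain (2 bp), were shorter. At these 8 genes, and at the antisense RNA gene 3010003L21Rik (2 bp), A1 also had a promoter cluster. The remaining coding genes, named after their values were seen, were Cldn5, a tight junction protein, Gyg, the primer of glycogen synthesis, Sox3, a transcription factor related to Sox2, and Ccdc71l, each with a cluster of 1 bp, and at Sox3 and Ccdc71l A1 had none. The lincRNA 4930445E18Rik was also counted, although its 19 bp cluster overlapped a cluster of E14 whose dominant TSS lay outside the promoter window.

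The 30 coding genes with a promoter cluster in E14 and none in C7 included wider clusters. The widest of these were at Axl (25 bp), Card10 (21 bp), Sh3tc2 (18 bp), Ddr1, a collagen-activated receptor kinase (15 bp), and Kctd16, an auxiliary subunit of GABA-B receptors (11 bp). The next were Lrrc8e, a subunit of volume-regulated anion channels (6 bp), Hs3st1, a heparan sulphate sulphotransferase (4 bp), Nfe2l3, a bZIP transcription factor (3 bp), and Slc51a, a subunit of an organic solute transporter (3 bp). At these 9 genes, and at the lincRNA F630040K05Rik (4 bp), A1 had a promoter cluster. Of the 30 coding genes 18 had a promoter cluster in A1, and 12, each with a cluster of 1 bp in E14, had none in either clone. These 12, named after their values were seen, were Clmn, Cpeb1, Cxcl14, Disp3, Gipr, Kif21b, Nxf7, Rap1gap, Stc1, Thra, Zap70 and Zkscan6.

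Matched clusters were next compared by the position of the dominant TSS. It moved by at least 1 bp in 6892 of 32595 matched clusters (21.1%) and by at least 10 bp in 2446 (7.5%). The median move was 5 bp. Moves downstream, in the direction of transcription, numbered 3592 and moves upstream 3300, and 99.0% of the new positions lay within the interquantile region that E14 had. Since nearly all matched clusters had the same bounds and the deposited file gives no tags per position, this does not show whether E14 used the same base. In the same measure A1 against E14 gave 23.8% and C7 against A1 gave 25.2%.

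Counting any move, promoters moved less often than other classes. The dominant TSS moved in 19.3% of 19776 promoter clusters (95% Wilson interval 18.8 to 19.9%), 22.9% of 4234 exonic clusters (21.6 to 24.2%), 24.4% of 3006 intronic clusters (22.9 to 26.0%) and 24.5% of 5579 intergenic clusters (23.4 to 25.7%). Since a wide region offers more positions, shares were also read within classes of E14 width. At 1 to 2 bp they were 13.6% in promoters and 19.4% in exons, at 6 to 10 bp 22.2% and 27.2%, and at 21 to 40 bp 18.8% and 27.2%. At each of these widths the promoter share was the lower. For moves of 10 bp or more the order turned, with 8.19% in promoters, 5.79% in exons, 5.16% in introns and 7.64% between genes, so that promoters had the highest share. These shares were not read within classes of width, and the median E14 width was 21 bp in promoters and 3 bp in exons. Among moved clusters of 11 to 20 bp the median move was 10 bp in promoters and 12 bp in exons. It was 12 and 18 bp at 21 to 40 bp, and 20 and 19.5 bp at 41 bp or more.

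**Figure D4:**
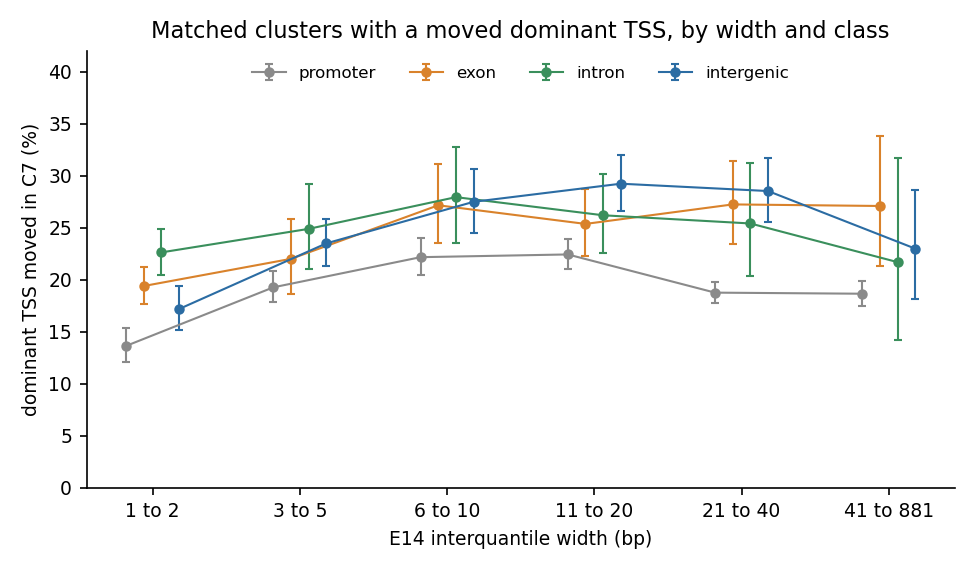
Share of matched clusters whose dominant TSS moved in C7 (y axis, percent) by interquantile width in E14 (x axis, bp) for 4 annotation classes; points are shares and bars 95% Wilson intervals for counting error. Promoters (grey) lie lowest in every width class, from 13.6% at 1 to 2 bp to 22.4% at 11 to 20 bp.

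The largest promoter moves downstream were those of Ptges3, the HSP90 co-chaperone p23 (164 bp), Ssr2, a subunit of the translocon-associated complex (155 bp), Klhdc3 (113 bp), Erp29, a chaperone of the endoplasmic reticulum (106 bp), and Crem, a cAMP-responsive transcription factor (99 bp). The dominant TSS of A1 stood at the E14 position in Ptges3 and Ssr2, at the C7 position in Klhdc3 and Erp29, and between them in Crem. Upstream promoter-class moves were smaller, with -94 bp at Gm23935, -78 bp at the mitochondrial mt-Ta and -73 bp at Cfl2, an actin-severing cofilin. They were -71 bp at Btbd9 and -67 bp at Actb, β-actin. The Actb cluster (chr5:142903571-142903670, minus strand) lay inside the gene, downstream of a C7-only promoter-class cluster of Actb (dominant TSS chr5:142905462). Its C7 position stood in a run of T, so this was not a move at the start of the gene. In exons the largest were Rbm25, a splicing factor (91 bp), Polr2a, the largest subunit of RNA polymerase II (73 bp), Ncl, nucleolin (61 bp), Hnrnpu (56 bp) and Rest, a repressor of neuronal genes (47 bp), all in coding sequence. Upstream exonic moves were -254 bp at the noncoding Gm42418, -61 and -35 bp at 2 clusters of Calr, the chaperone calreticulin, -38 bp at Pcnt and -36 bp at Ndufa10. In each of these 5 exonic downstream movers the cluster had the same bounds in both lines, as had 4214 of all 4234 matched exonic clusters.

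In the gene lists, the widest promoter cluster of each gene was read. It can lie inside the gene: in Hnrnpa3 it was chr2:75662673-75662752 (plus strand), downstream of another promoter cluster (E14 dominant TSS chr2:75659278). Moves in these lists thus refer to the widest cluster, and need not be at the main promoter of a gene. Its dominant TSS moved in 17.4% of 11033 coding genes and in 35 of the 211 list genes (16.6%). Shares by list ran from 1 of 13 histone acetyltransferases and readers to 6 of 20 hnRNP genes. In the pluripotency list 2 of 23 moved, Utf1, a chromatin-bound factor of embryonic stem cells, by 79 bp and Prdm14 by 5 bp. Pou5f1, Sox2, Nanog, Esrrb and Klf4 kept the position at their widest promoter cluster. In the H3K36 list 4 of 24 moved: the demethylases Kdm4a (54 bp) and Kdm4b (27 bp), the FACT subunit Ssrp1 (31 bp) and the methyltransferase Nsd2 (17 bp). Translation factors moved at 4 of 20 genes, Eif2s2 by 88 bp, Eef1d by 29 bp, Eif4a2 by -51 bp and Pabpc1 by -42 bp, and NuRD genes at 2 of 14, Mta1 by 32 bp and Mbd2 by -4 bp.

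In the chaperone list 5 of 18 genes moved: Ptges3, Cct7 (35 bp) and Cct3 (24 bp) moved downstream, and Hsp90ab1 (-28 bp) and Hspd1 (-27 bp) upstream. Imprinted genes moved at 4 of 23, with -58 bp at Igf2r, a receptor for insulin-like growth factor 2, -19 bp at Sgce, 7 bp at Rian and -3 bp at Airn. DNA replication genes moved at 4 of 26, Rpa1 by 39 bp, Mcm7 by 32 bp, Gins3 by 18 bp and Pcna by 3 bp. The moves had both signs in the NuRD, hnRNP, SR and splicing, translation, chaperone and imprinted lists. All were downstream in the H3K36, pluripotency and DNA replication lists. The H2A.Z list had 1 move, downstream, and the list of histone acetyltransferases and readers 1, upstream.

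The start sites of Utf1, Kdm4a and Ssrp1 are shown in pairs, since they give the bases at which the lines differed. The lines hold 30 bases of mm10 from RefSeq promoter windows and GENCODE M21 transcripts, with capitals at the 2 bases before the dominant TSS and at the dominant TSS.
Utf1 in E14 (chr7:139943808-139943837, plus strand): ctggaggagcccTCCtctctggtgaggcca
Utf1 in C7 (chr7:139943887-139943916, plus strand): cccggaggttgcCCGctttttctccgccgt
Kdm4a in E14 (chr4:118180005-118180034, minus strand): gactatgggctcTGTgaggctgcgcagagt
Kdm4a in C7 (chr4:118179951-118179980, minus strand): tgtctttcgcccTCAagaaagacagtggga
Ssrp1 in E14 (chr2:85037448-85037477, plus strand): agggggagaaacGTAgattcacgcggggcc
Ssrp1 in C7 (chr2:85037479-85037508, plus strand): cggggtggtgggGTCtctgcgatcaggaca
In Kdm4a the start moved to an A that follows C, whereas in Ssrp1 it left an A that follows T.

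Over all moved promoter clusters with sequence, 3302 of 3822, the base of the dominant TSS more often became A than it left A. It became A in 941 clusters and left A in 617, so that A made up 35.9% of these starts in E14 and 45.7% in C7, while G made up 47.7% and 37.9%. In exons the base became A in 227 and left A in 143 of 957 moved clusters, with A at 25.3% in E14 and 34.1% in C7. Over all promoter clusters, moved or not, A stood at the dominant TSS in 47.3% in E14, 49.3% in C7 and 47.2% in A1. For A1 against E14 the base became A in 811 and left A in 847 moved promoter clusters, and for C7 against A1 in 1057 and 697. The shift toward A thus appeared where C7 was compared with either line, and whether the base composition of the starts moved with the libraries or with the cells was not tested.

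Interquantile regions more often widened than narrowed in C7. They were wider in 6041 matched clusters (18.5%), narrower in 3451 (10.6%) and equal in 23103. At 2 fold or more, 845 were wider (2.59%) and 613 narrower (1.88%). In promoters 4734 were wider and 2501 narrower, in exons 382 and 283, in introns 242 and 197, and between genes 683 and 470. All 4 classes thus had more wider than narrower regions, but a region of 1 to 2 bp has little room to narrow. At an E14 width of 1 to 2 bp, 128 exonic regions were wider and 29 narrower, and at 21 to 40 bp 69 and 75. In introns these counts were 83 and 27, then 44 and 44. They were 239 and 40, then 1883 and 880 in promoters, and 187 and 31, then 152 and 129 between genes. In exons and introns the excess thus lay mostly at the narrowest regions. The median width was 21 bp in promoters in both lines and 3 bp in exons in both lines. A1 against E14 also had more wider (6623) than narrower (3410) regions, and both comparisons share the E14 track. Against A1, C7 was wider in 4755 and narrower in 5353 clusters. The excess of wider regions thus held for both clones against E14 and was not particular to C7.

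The widening lay mostly at the downstream edge. In promoters the 3′ edge moved outward in 3287 clusters and inward in 1105, whereas the 5′ edge moved outward in 2284 and inward in 1961. In exons the 3′ edge moved outward in 251 and inward in 142, and the 5′ edge outward in 188 and inward in 182. In A1 against E14 the 5′ edge moved outward in 3098 promoters and inward in 1767, and the 3′ edge outward in 2994 and inward in 1465.

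**Figure D5:**
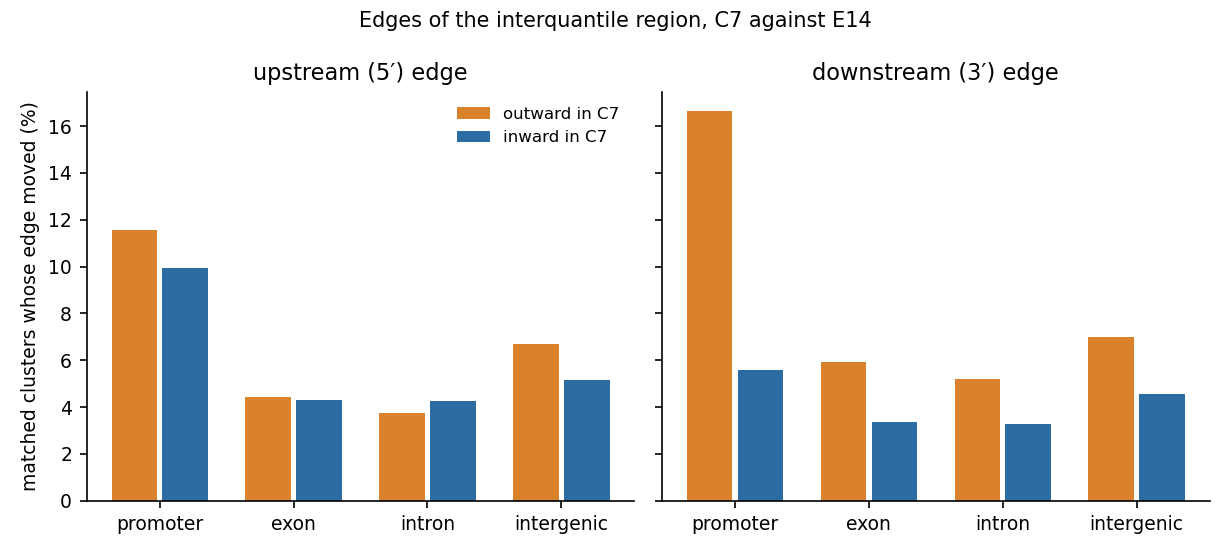
Share of matched clusters (y axis, percent) whose upstream (left) or downstream (right) edge of the interquantile region moved outward (orange) or inward (blue) in C7, by annotation class (x axis). The downstream edge of promoters moved outward in 3287 clusters and inward in 1105, the widest gap of the 8 pairs of bars.

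The largest changes of width were between a single base and a short region. In promoters the widest gains were 5730405O15Rik (1 to 25 bp), Taf1d, a factor of RNA polymerase I transcription (1 to 24 bp), Hnrnpd and Yeats2, a reader of acylated histones (1 to 21 bp each), and Rad51c, a recombination protein (1 to 20 bp). The largest losses were Ddb1, an adaptor of ubiquitin ligases, Egfr, the receptor of epidermal growth factor, and Sptbn1, a spectrin (21 to 1 bp each), Sh2b3 (20 to 1 bp) and Bloc1s2 (19 to 1 bp). At these losses A1 had the E14 width. At the gains of Hnrnpd, Yeats2 and Rad51c A1 had the C7 width, with 11 bp at Taf1d and 5 bp at 5730405O15Rik. In exons Calr (1 to 20 bp), Ctcf, the chromatin insulator protein (2 to 35 bp), Rbbp6 (1 to 17 bp), Ier2 (1 to 16 bp) and Pnoc (1 to 14 bp) gained, and Prpf39, a splicing factor (21 to 1 bp), Zfr (20 to 1 bp), Rif1, a regulator of replication timing (18 to 1 bp), and Fat1 (15 to 1 bp) lost. A1 had the C7 width at the exonic gains of Calr, Rbbp6 and Ier2, 24 bp at Ctcf and no value at Pnoc. At these exonic losses it had the E14 width. With only 1 track per line, none of these changes could be set against a spread between replicates.

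In the lists, the widest promoter cluster was wider in C7 at 79 and narrower at 45 of the 211 genes, beside 3437 and 1794 of 11033 coding genes. The largest difference in count was in DNA replication genes, with 14 wider and 5 narrower of 26, and pluripotency genes had 8 and 6 of 23. The H3K36 list had 8 wider and 6 narrower of 24. Rian, a noncoding RNA of the Dlk1-Dio3 imprinted region, went from 10 to 27 bp, and Kat6b went the other way, from 32 to 12 bp.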

How the data were processed

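CAGE-seq libraries of nuclear RNA from E14 (3 samples) and Pwwp2a/b DKO clone C7 (3 samples) were compared. The authors demultiplexed the reads by barcode, mapped them to mm10 with STAR 2.4.2a, kept unique alignments, merged replicates of a line, normalised the tags with a power law and called tag clusters and interquantile regions (quantiles 0.1 and 0.9) with CAGEr, per the study's methods. The submitters' processing notes also name SAMtools 1.3 and bedtools 2.17.0. The deposited file gives cluster bounds, the dominant TSS and blocks of the interquantile region for 3 tracks, and its score is 0 in every row, so no expression level, depth or replicate value was in the deposited file. Signal tracks were not used here. The depth behind a cluster is therefore unknown, and shares carry Wilson intervals for counting error only.

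Clusters of C7 and E14 were matched where they shared 1 bp or more on 1 strand. Each was classed by its own dominant TSS with GENCODE M21 on mm10, whereas the study used release M22: promoter for a distance of up to 500 bp from the start of a same-strand transcript, then exon, intron or intergenic. Dominant TSS moves and widths were read on clusters matched one to one, with positive moves downstream. Intragenic means exonic or intronic. Sequences came from RefSeq promoter windows (GRCm38.p6) and GENCODE M21 transcripts. Coverage was under 80% for intronic and intergenic clusters and for promoter clusters of 1 line only, so base shares are void there. Python 3.11.15, NumPy 2.4.6, SciPy 1.17.1 and Matplotlib 3.10.9 were used, and the matching was tested on simulated data. Named genes were Pwwp2a and Pwwp2b, genes with at least 2 more or fewer intragenic clusters, the 5 widest unmatched clusters, 5 largest moves and 5 largest width changes per class and direction (the last among regions of at least 10 bp in the wider line), up to 10 genes each way with a promoter cluster in 1 line only, and list genes with an unmatched cluster. List genes whose widest promoter cluster moved are named beside their counts, except in the hnRNP, SR and splicing, H2A.Z, and histone acetyltransferase and reader lists. Members, lists and rules were chosen with earlier results of these data known. Alternatives changed the match, the promoter window, the class position, the transcripts and the thresholds. The count of clusters of at least 2 bp was added after seeing the data.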

Additional observations from a re-analysis of the deposited data

Results flagged for a closer look

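In 2 classes the balance of unmatched clusters had opposite signs in the 2 DKO clones against E14, and the difference between the clones was not tested. In exons both clones had more clusters of their own (82 against 24 for C7, 75 against 29 for A1). In introns, C7-only minus E14-only clusters came to -21 (17 against 38), while A1-only minus E14-only clusters came to 21 (47 against 26). In intergenic regions the values were -26 for C7 (73 against 99) and 75 for A1 (150 against 75). Both clones share the E14 track, and A1 rests on 2 libraries where C7 rests on 3. Clusters of 1 bp made up 13 of the 17 intronic C7-only clusters and 41 of the 47 intronic A1-only clusters.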

How the results depend on the processing

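Of 152 values recomputed under alternatives for 25 results, 94 stayed within the range set for them (1.5 times for counts, the 95% interval for shares), 48 moved beyond it and 10 belonged to differences that turned direction. The exonic excess of C7 kept its direction under every rule of match, window, class position and transcript set tried. It turned under both filters on width, and these also removed most unmatched clusters by construction. With interquantile regions of at least 3 bp, C7-only and E14-only clusters numbered 4 and 11 in exons, 16 and 28 in promoters, 3 and 13 in introns, and 15 and 21 between genes. With clusters at least 2 bp wide, chosen after seeing the data, they numbered 8 and 19, 21 and 31, 4 and 22, and 31 and 44. A window of 100 bp gave 51 C7-only promoter clusters, one of 1000 bp gave 97 against 93 in E14, which turned the difference of 83 against 85, and a reciprocal overlap of 50% gave 27 intronic C7-only clusters.

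The share of moved dominant TSS fell to 11.3% at 5 bp and 7.5% at 10 bp over all clusters, to 11.9% and 8.19% in promoters, and to 9.52% and 5.79% in exons. With E14 regions of at least 3 bp it was 21.9%, 19.9% and 25.5%, and a window of 100 bp gave 18.5% in promoters. At 1.5 fold, regions wider and narrower in C7 numbered 1460 and 969 over all clusters and 805 and 505 in promoters, with 199 wider in exons. With at least 3 bp in both lines they numbered 367 and 252 over all clusters, 226 and 144 in promoters and 37 and 42 in exons, where the direction turned. A change of at least 10 bp gave 789 wider in promoters and 81 in exons, and 43 wider and 45 narrower in introns, which also turned. A window of 100 bp gave 158 narrower in exons. The causes of these changes were not tested.

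No paired analysis was possible because the replicates of each line were merged into 1 track, and leaving out each replicate was not run for the same reason. The depth behind a cluster is unknown, and presence or absence is relative to the threshold at which the authors called clusters.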
